A study of Mus musculus with 40 samples.

Results

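The Kif genes encode kinesins, motor proteins that walk along microtubules or shorten their ends, and their transcripts were followed in mouse oocytes over 5 stages of follicle growth. Members were all probe sets of a pair of Affymetrix array types, 430A and 430B, whose only platform gene symbol begins with Kif and a digit. There were 99 such probe sets among 45037, with 59 on 430A and 40 on 430B. They stand for 37 genes of the 18193 with a single symbol. Of these, 33 genes had at least 1 of 83 probe sets bright enough to test. The C-terminal motors of the Kifc genes and the centromere kinesin Cenpe lie outside this definition and are given only as companions.

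In a dividing cell, kinesins build the spindle, align chromosomes on it and set up the midzone where the cell is split. In other cells they carry vesicles, organelles and messenger RNAs, and a further set builds and maintains cilia. The oocyte rests in meiotic prophase throughout follicle growth and has no spindle. Motors for the later meiotic divisions, and for the first divisions of the embryo, are known to be supplied largely from transcripts and proteins stored in the growing oocyte.

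Oocytes of SJLB6 females were pooled from primordial follicles of mice aged 2 days (400 oocytes per sample), primary follicles at 6 days (90 oocytes), secondary follicles at 12 days (60 oocytes), small antral follicles at 17 days (30 oocytes) and large antral follicles at 24 days (20 oocytes). With 4 replicates, called biological, for each stage and array type there were 40 samples. No group carried a mutation or a treatment, and age and pool size moved with the stage, so their effects cannot be told apart from that of the stage. For small antral replicates 2 to 4 on 430B, the extraction text names the age and pool size of the secondary stage, while the titles say small antral. No animals are named for the replicates, so p-values measure only the spread between these samples.

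The values are array signals, scaled here so that the trimmed mean of every array is 500. They measure a transcript relative to the rest of the amplified RNA, not its copies per oocyte, and in a pool fewer cells of a type and less RNA per cell cannot be told apart. Signals of different probe sets are not comparable with each other. The share of probe sets at 100 or more ran from 57.4% to 64.7% over 430A arrays and from 65.8% to 77.9% over 430B arrays. The median standard error (SE) of a log2 change between stages was 0.17 on 430A and 0.34 to 0.35 on 430B, so smaller changes were resolved on 430A. Markers of the oocyte itself were bright at every stage, with 9 of 9 on 430A averaging at least 100 and summed signals of 65679 to 85170 in primordial, 115575 to 119126 in primary, 116292 to 127413 in secondary, 101974 to 114625 in small antral and 77642 to 86528 in large antral samples. Blood and endothelium markers summed to no more than 553.8 in any sample.

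The deposited primordial samples were not independent. When replicates 2, 3 and 4 were doubled and replicate 1 was subtracted, no negative value appeared among 22526 probe sets of 430A or 22411 of 430B (0 and 0). A further 100 on 430A, no Kif probe set among them, hold values with more decimals than the rest and were left out of this check and of the unmixed values. Between replicates of other stages that operation left 1120 to 2857 negative values on 430A and 1989 to 3790 on 430B. These columns therefore have the form of means with replicate 1. Such means lie closer together than separate samples do. Standard errors, p-values and non-overlap from the deposited primordial values thus overstate the precision. In "unmixed" columns, each of the 3 was doubled and replicate 1 subtracted. Changes from the primordial stage are given as deposited, and those called on the probe set that represents a gene have the unmixed value beside them. Calls on further probe sets are as deposited. Among those printed, a Kif1b call was lost with unmixed values and is named, and the unmixed change of 1 in Kif6 is not given. Counts of called probe sets within a gene were not repeated with unmixed values. The fits of comparisons among the 4 later stages used none of these columns. The choice of tested and representing probe sets used all 20 arrays, these columns among them.

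Most of the tested Kif genes averaged a signal of at least 100 at every stage on the probe set that represents them. No detection calls were used, so this does not show that a transcript was present. The family did not move as a block. By mean signal, 15 of the 33 tested genes were highest in primordial oocytes, 5 in primary, 2 in secondary, 3 in small antral and 8 in large antral oocytes. Over all 15426 genes tested the shares were 38.2% primordial, 13.9% primary, 13.2% secondary, 13.5% small antral and 21.2% large antral. Spindle and cytokinesis kinesins were highest in large antral oocytes in 6 of 12 genes and in primordial oocytes in 3 of 12. Cargo kinesins were highest in primordial oocytes in 9 of 12 genes and in large antral oocytes in none. These are orders of means, and neighbouring stages often overlapped. There were 4 Kif genes with no probe set that reached 100 in at least 4 of 20 arrays. Among them were Kif1a, the axonal carrier of synaptic vesicle precursors, with a highest signal of 159.9, and Kif7, a regulator of hedgehog signalling in the cilium, with a highest signal of 117.5. The cytokinesis kinesin Kif14 stayed at or below 97.0, and Kif28 at or below 72.2.

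**Figure D1:**
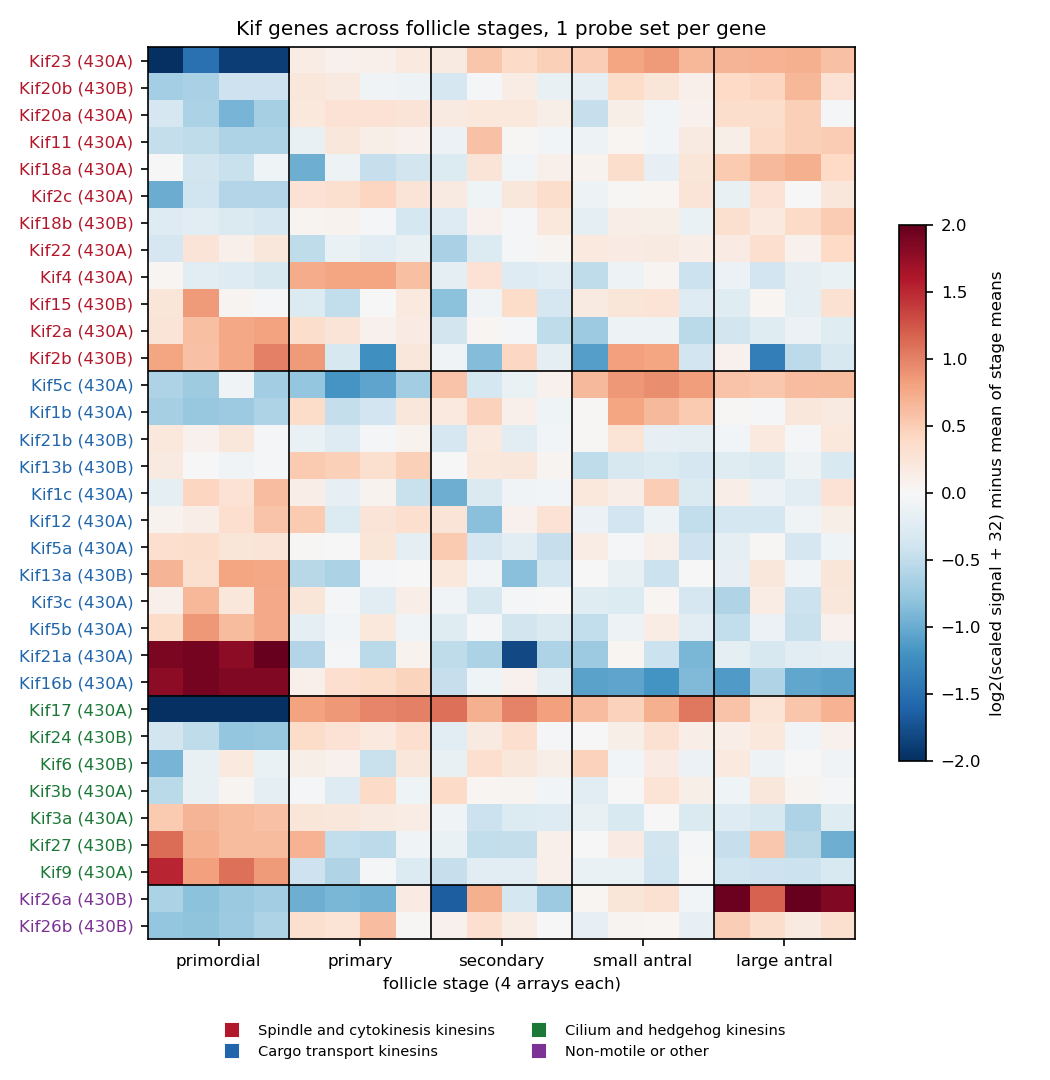
Each row is a tested Kif gene, each column 1 of 4 arrays per stage, and colour is log2(scaled signal + 32) minus the mean of the gene's 5 stage means, limited to 2 either way. Kif23 and Kif17 are lowest in the primordial columns, Kif16b and Kif21a highest there, and Kif26a is highest in the large antral columns.

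The primordial to primary comparison sets growing oocytes against oocytes not yet in growth, and it held the most Kif calls of the 5 comparisons. By the probe set that represents each gene, Kif17 and the midzone motor Kif23 rose most, and Kif21a and the endosome motor Kif16b fell most. Of 33 genes, 11 rose and 7 fell, with an adjusted p under 0.05 counted as a call. That is 33.3% and 21.2% of the genes, where 25.3% of all 15426 genes tested rose and 23.5% fell (48.8% in all), so neither count stands far from the rest of the arrays. The median log2 change was -0.21 over Kif genes and -0.05 over all genes. With unmixed primordial values, 11 Kif genes rose and 9 fell, against 23.3% and 18.4% of all genes (41.7% in all). In all, 17 genes were called the same way with both sets of values, 11 up and 6 down. The 4 arrays of each stage did not overlap for 11 of the 11 rises and 6 of the 7 falls, as for 88.1% of the rises and 87.2% of the falls over all genes. With unmixed values this held for 11 of 11 rises and 4 of 9 falls, against 77.2% and 73.4% over all genes.

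Kif17 is a motor known for carrying receptor vesicles in neuronal dendrites and, in male germ cells, for moving a transcriptional coactivator out of the nucleus. Its signals were 5893, 6185.5, 6686 and 6812.5 in primary oocytes, against 292, 406, 384 and 443 in primordial oocytes. Every primary sample lay far above every primordial sample, and later stages stayed in the high range, with means of 6369.5 ± 768 in secondary, 5599 ± 1032 in small antral and 4873 ± 588 in large antral oocytes (SD, n = 4 each). The log2 change in primary oocytes was 3.97 ± 0.13 (SE; adjusted p = 9.9e-18), or 3.68 ± 0.17 with unmixed values (adjusted p = 5.1e-13). Its other tested probe sets rose by 3.14 ± 0.15 and 2.88 ± 0.12. In large antral oocytes the represented probe set was lower than in primary oocytes by a log2 of 0.40 ± 0.12 (adjusted p = 0.0099). That call was lost in the fit with all 20 arrays and unmixed primordial values (adjusted p = 0.094), and the other probe sets gave 0.09 and -0.07 there and did not pass the test.

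The promoter of Kif17 is shown because it holds a full cAMP response element, TGACGTCA, the palindromic letters bound by CREB and CREM factors. Among 35 promoter windows found for 31 Kif genes, 2 held it, 5.71%, against 1.55% of the 32851 windows of the table. The other was that of the neuronal kinesin-1 gene Kif5c. This motif was looked for after these sequences had been read. Both stretches are the 100 bases before the annotated start (RefSeq, GRCm38.p6), on the plus strand, chr4:138262151-138262250 and chr2:49619186-49619285, with the motif in capitals.
Kif17: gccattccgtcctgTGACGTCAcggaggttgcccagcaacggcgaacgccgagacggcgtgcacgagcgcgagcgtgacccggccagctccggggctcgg
Kif5c: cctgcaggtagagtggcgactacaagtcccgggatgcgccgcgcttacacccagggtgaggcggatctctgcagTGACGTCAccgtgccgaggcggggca
The element lay 86 to 79 bases before the start in Kif17 and 26 to 19 bases before it in Kif5c. By the probe sets that represent them both genes changed among these stages, Kif17 mostly between primordial and primary oocytes and Kif5c during later growth. Such changes are common, since 30.3% of the tested Kif genes and 37.0% of all genes were called in none of the 5 comparisons. A match of letters is a description and not evidence of binding.

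Among 12 spindle and cytokinesis kinesins, 6 rose and 1 fell in primary oocytes (6 and 2 with unmixed values), with a median log2 change of 0.40. Over all genes 25.3% rose and 23.5% fell (23.3% and 18.4% with unmixed values), which is the background for each count of this comparison. Kif23 (MKLP1), the motor subunit of the centralspindlin complex that bundles midzone microtubules, had 2716.5, 2606, 2631 and 2808 in primary oocytes, against 455, 852, 640.1 and 641 in primordial oocytes. All primary samples lay above all primordial ones. The log2 change was 2.03 ± 0.13 (adjusted p = 2.1e-12), or 1.69 ± 0.19 unmixed (adjusted p = 2.1e-07), and a further probe set gave 1.55 ± 0.21. Kif2c (MCAK), a microtubule depolymerase that frees wrongly attached kinetochores, averaged 5363 ± 289 in primary and 2755.5 ± 459 in primordial oocytes (SD, n = 4 each). Its rise of 0.97 ± 0.12 (0.67 unmixed) came from a probe set of a class that can bind related transcripts, and a gene-specific one rose by 1.98 ± 0.12. Its remaining tested probe sets gave -0.16 ± 0.18 and 0.10 ± 0.14 and did not pass the test. Kif4, a chromosome-bound motor that works with Prc1 at the midzone, had 4666, 4844, 4815 and 4237 in primary oocytes, against 2850.2, 2402, 2305 and 2225 in primordial oocytes. All 4 primary samples were above all primordial ones, with a log2 change of 0.92 ± 0.13 (1.16 unmixed).

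Kif20a (MKLP2), which brings the chromosomal passenger complex to the midzone, had 546, 582, 582.5 and 565 in primary oocytes, against 363, 289.7, 231 and 283 in primordial oocytes. It rose by 0.91 ± 0.14 (1.31 unmixed), and again the groups did not overlap. Kif11 (Eg5), the motor that pushes spindle poles apart, rose by 0.62 ± 0.14 (0.67 unmixed) on the probe set that represents it. Its probe sets disagreed, as set out further on. Kif20b, which acts late in cytokinesis, rose by 0.60 ± 0.13 on 430B (0.47 unmixed), a call lost with quantile normalization (log2 change 0.25, adjusted p = 0.1), and a further pair of its probe sets fell, by 1.36 ± 0.25 and 1.77 ± 0.39. Kif2a, a depolymerase of spindle poles, was the 1 member of the group that fell, by 0.39 ± 0.15 (-0.69 unmixed). That call was lost when arrays were scaled to the same median (log2 change -0.24, adjusted p = 0.18) and without each of primary replicates 3 and 4 and primordial replicates 3 and 4 (log2 changes -0.38 to -0.33, adjusted p = 0.053 to 0.081).

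The remaining spindle motors did not pass the test in this comparison. For the chromokinesin Kif22 the represented probe set gave -0.31 ± 0.14 (adjusted p = 0.056), and with unmixed values it fell by 0.64 ± 0.19. The other Kif22 probe sets rose instead, by 1.49 ± 0.15 and 1.55 ± 0.14. One of them had 346, 416, 407 and 464 in primary oocytes, against 196, 101, 103.5 and 114 in primordial oocytes. The represented probe set belongs to the class that can bind related transcripts, so the direction for Kif22 is uncertain. Kif18a, which dampens chromosome movement on the spindle, changed by -0.25 ± 0.16, its relative Kif18b by 0.20 ± 0.12, and Kif15, a plus-end motor that can stand in for Kif11, by -0.42 ± 0.33.

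Promoters of 4 spindle kinesins are shown for a second motif, the CCAAT box, bound by the NF-Y factor and known from many genes of cell division. CCAAT or its reverse ATTGG was found in 15 of 35 Kif windows, from 14 genes. That is 42.86% against 33.85% of all windows, so it is common everywhere. Among the 14 are Kif1b, Kif24, Kif26b, Kif27, Kif3a, Kif3b and Kif6, which are not in the spindle group. The 100 bases before the start are given for Kif4 (chrX:100625965-100626064, plus strand), Kif23 (chr9:61946800-61946899, minus strand), Kif18b (chr11:102925125-102925224, minus strand) and Kif11 (chr19:37376282-37376381, plus strand), each read along its gene, with the box in capitals.
Kif4: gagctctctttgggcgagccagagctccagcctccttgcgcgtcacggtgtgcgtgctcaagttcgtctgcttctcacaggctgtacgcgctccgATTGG
Kif23: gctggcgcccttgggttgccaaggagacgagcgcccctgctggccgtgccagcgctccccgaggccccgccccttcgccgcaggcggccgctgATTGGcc
Kif18b: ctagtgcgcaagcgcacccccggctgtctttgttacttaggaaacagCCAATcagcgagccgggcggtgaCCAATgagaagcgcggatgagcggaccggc
Kif11: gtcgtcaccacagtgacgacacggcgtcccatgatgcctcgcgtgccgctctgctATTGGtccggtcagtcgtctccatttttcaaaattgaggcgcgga
The cell cycle homology letters TTTGAA or TTCAAA were in 8 of 35 Kif windows, 22.86%, against 15.99% of all windows, and 1 copy lies 19 to 14 bases before the start of Kif11. The 4 genes printed here did not move alike. Kif23 and Kif4 rose in primary oocytes, after which the mean of Kif4 was lower at every later stage and that of Kif23 was higher, while Kif18b was called only over the whole span of growth.

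Among 12 cargo kinesins, 2 rose and 4 fell (2 and 6 with unmixed values), against 25.3% and 23.5% of all genes, with a median log2 change of -0.40. Kif21a, a motor that slows microtubule growth in axons, had 91.9, 152, 96.5 and 164 in primary oocytes, against 653, 671, 609.9 and 712 in primordial oocytes. No values overlapped, and the log2 change was -2.16 ± 0.24 (adjusted p = 4.2e-08), or -2.21 ± 0.26 unmixed (adjusted p = 4e-07). A 430B probe set fell by 1.65 ± 0.32, and a further one gave 0.01 ± 0.22 and did not pass the test. Kif16b, which moves early endosomes toward microtubule plus ends, had 675, 796, 815 and 863 in primary oocytes, against 2244.5, 2446, 2329 and 2322 in primordial oocytes. It fell by 1.54 ± 0.13 (-1.63 unmixed), and its other probe sets fell by 0.99 ± 0.17 and 0.56 ± 0.14. Kif13a, a carrier of recycling endosomes, averaged 750.2 ± 179.9 in primary and 1452 ± 207 in primordial oocytes (SD, n = 4 each) and fell by 0.94 ± 0.20 (-0.89 unmixed). Of its other tested probe sets 1 fell, by 1.01 ± 0.20, and the others gave 0.21 ± 0.20 (0.89 unmixed) and -0.11 ± 0.19 and did not pass the test. Kif5b, the widely used kinesin-1 heavy chain, had 401, 439.6, 538 and 436 in primary oocytes, against 600.4, 858, 731 and 799 in primordial oocytes, and fell by 0.68 ± 0.15 (-0.94 unmixed).

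The 2 cargo kinesins that rose were Kif13b and Kif1b. Kif13b, a carrier of the polarity protein Dlg1, rose by 0.43 ± 0.10 (0.60 unmixed), a call lost with quantile normalization (log2 change 0.12, adjusted p = 0.33). Kif1b, known for carrying mitochondria and synaptic vesicle precursors, rose by 0.62 ± 0.17 (0.62 unmixed) on the probe set that represents it, while others fell. On 430B the median of all tested probe sets itself was -0.23 in this comparison, and it became 0.05 with arrays scaled to the same median and -0.03 with quantile normalization. Relative to that median of -0.23, the 430B genes Kif26b, Kif24, Kif20b and Kif13b were higher by 1.27, 1.13, 0.83 and 0.66, and Kif13a was lower, at -0.71.

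Of 7 cilium and hedgehog kinesins tested, 2 rose and 2 fell (2 and 1 unmixed), against 25.3% and 23.5% of all genes, with Kif17 among the rises. Kif24, a depolymerase of the centriole that holds back cilium formation, had 2694, 2567, 2400.0 and 2651 in primary oocytes, against 1606, 1458, 1209 and 1222 in primordial oocytes, and rose by 0.90 ± 0.12 (1.18 unmixed). Its other tested probe sets gave -0.60 ± 0.29 and -0.01 ± 0.51 and did not pass the test. Kif3a, a motor subunit of the kinesin-2 trimer that drives transport in cilia, fell by 0.41 ± 0.10 (-0.52 unmixed). That call was lost with the probe set of highest mean over both array types (log2 change -0.22, adjusted p = 0.36). With deposited values 3 of its 4 tested probe sets were called as falls. Of these, 1 averaged 1228 ± 224 in primordial oocytes as deposited, but 955 ± 428 unmixed, against 919 ± 105 in primary oocytes (SD, n = 4 each). Kif9, known from sperm tails, averaged 262 ± 50.7 in primary and 753 ± 189 in primordial oocytes (SD, n = 4 each). Its fall of 1.40 ± 0.16 was not called with unmixed values (-0.64 ± 0.29, adjusted p = 0.072), since replicate 1 is the highest primordial sample. Kif26b, an atypical kinesin that acts in kidney development, had 1579, 1520.1, 1938 and 1284 in primary oocytes, against 719, 707, 746 and 809 in primordial oocytes. It rose by 1.04 ± 0.13 (0.98 unmixed), and no values overlapped. The 15 genes that did not pass the test ranged from -0.91 to 0.25 in log2 change, with adjusted p of 0.056 to 0.94.

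**Figure D2:**
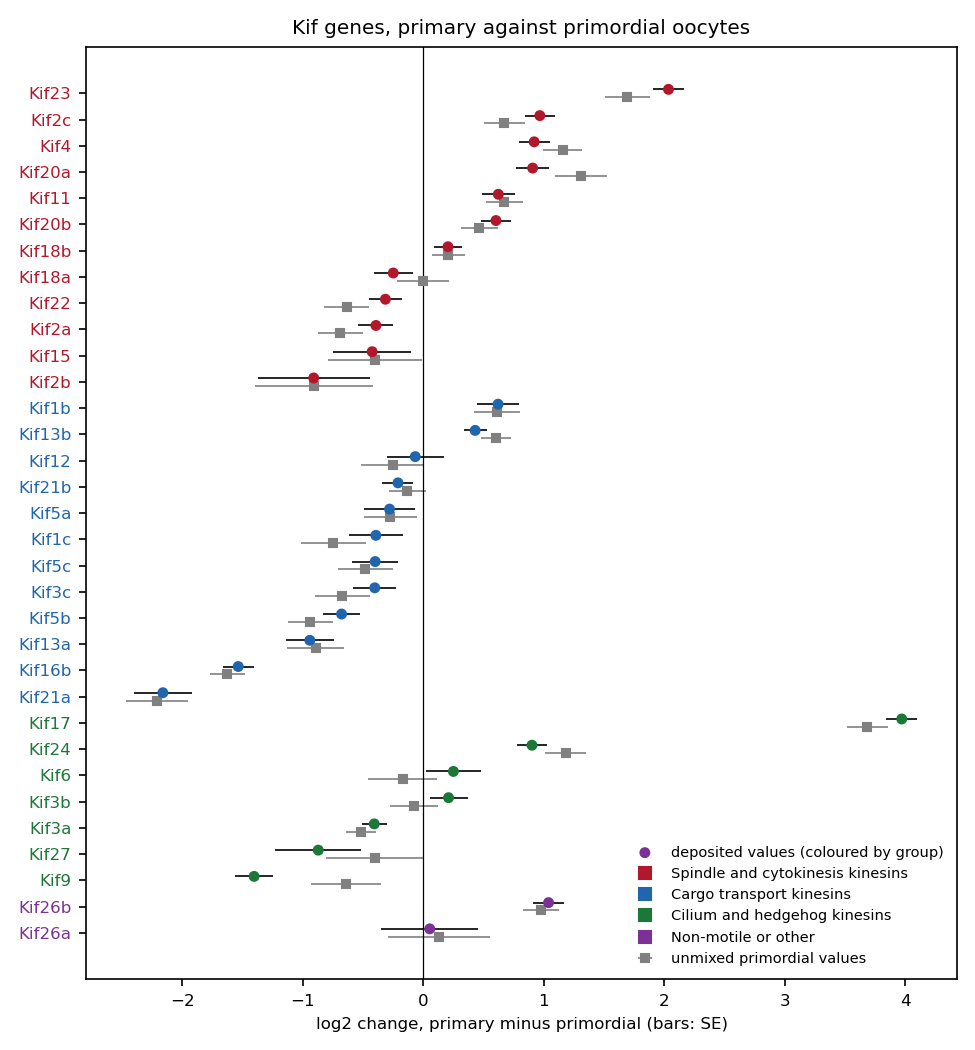
Log2 change of each tested Kif gene in primary minus primordial oocytes, with its SE, from deposited values (coloured circles) and unmixed primordial values (grey squares), ordered by group and size. Kif17 lies near 4 with both, Kif23 near 2, Kif21a near -2, and the 2 estimates differ most for Kif9.

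Theca and stroma markers were higher in primordial samples, with summed signals of 858 to 1178 in primary and 1351 to 1957 in primordial samples over 9 genes, of which 3 and 5 averaged at least 100. Of the 5 tested, 2 fell and 0 rose, against 23.5% and 25.3% of all genes. The stromal proteoglycan gene Dcn fell by 2.39 ± 0.33 (-2.47 unmixed) and Star by 0.80 ± 0.21 (-1.02 unmixed). Proliferation genes moved the other way, with 4 of 6 called up and 1 down, against 25.3% and 23.5% of all genes. Their sums were 12104 to 12620 in primary and 9017 to 10011 in primordial samples. The part of these cells or of this programme in the Kif changes was not tested.

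After the primary stage, fewer Kif genes were called between neighbouring stages. From primary to secondary, 3 Kif genes rose and 4 fell, 9.1% and 12.1%, where 10.1% of all genes rose and 6.72% fell (16.8% in all). The groups did not overlap for 1 of the 3 rises and 4 of the 4 falls, against 89.3% and 86.8% over all genes. No represented probe set was called at 2-fold or more, as 2.5% of all genes were, while further 430B probe sets of Kif5c and Kif21a were. With arrays scaled to the same median, 1 rose and 4 fell. Among represented probe sets that of Kif4 fell the most. It had 2447, 3389, 2328.5 and 2377 in secondary oocytes, against 4666, 4844, 4815 and 4237 in primary oocytes, a log2 change of -0.82 ± 0.13 (adjusted p = 0.00011). Even the high secondary replicate 2 was below all primary samples, and small antral and large antral oocytes averaged 2367 ± 445 and 2409.8 ± 203. The primary arrays are shared by this comparison and the one before, so the 2 are not independent.

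Kif5c, a kinesin-1 heavy chain known from neurons, had the largest called rise. On 430A it had 230.0, 106, 129.5 and 155 in secondary oocytes, against 71.4, 46.3, 53.2 and 77.4 in primary oocytes, all secondary samples being higher. The log2 change was 0.96 ± 0.18 (adjusted p = 0.00075). Its 430B probe set had 2032, 2108.5, 2301 and 1876 in secondary oocytes, against 1260.2, 814, 944 and 1005 in primary oocytes, and rose by 1.04 ± 0.12. The 430B probe set of Kif21a that had fallen in primary oocytes fell again, by 1.52 ± 0.35 (adjusted p = 0.01), while the represented one gave -0.62 ± 0.27 and did not pass the test. Kif16b fell further, by 0.48 ± 0.14, a call lost without primary replicate 3 or 4 or secondary replicate 1 (log2 changes -0.46, -0.44 and -0.38, adjusted p = 0.053, 0.062 and 0.078). Kif3a fell by 0.46 ± 0.11, a call lost with the probe set of highest mean over both array types (log2 change -0.45, adjusted p = 0.23). Kif2a fell by 0.44 ± 0.14. The Kif2a call was lost under 8 of 19 alternatives (adjusted p = 0.051 to 0.18), 5 of which left out 1 replicate. The rises of Kif18a (0.48 ± 0.17, adjusted p = 0.046) and Kif23 (0.27 ± 0.09, adjusted p = 0.038) overlapped between groups. They were lost under 11 and 12 of 19 alternatives, with adjusted p of up to 0.2 and 0.47.

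From secondary to small antral, 3 Kif genes rose and 2 fell, 9.1% and 6.1%, against 5.93% and 9.19% of all genes (15.1% in all). With quantile normalization or equal medians, 1 rose and 2 fell. Kif5c rose again. It had 244, 289, 304 and 284 on 430A in small antral oocytes, against 230.0, 106, 129.5 and 155 in secondary oocytes, and the groups did not overlap (0.78 ± 0.18, adjusted p = 0.0044). The 430B probe set had 5838, 5551, 6779 and 6411 in small antral oocytes, against 2032, 2108.5, 2301 and 1876 in secondary oocytes, a log2 change of 1.55 ± 0.12. Kif16b had 281, 283, 255 and 324 in small antral oocytes, against 442, 584, 665 and 542 in secondary oocytes, and fell by 0.88 ± 0.14 (adjusted p = 0.00016). Kif13b had 1805, 2058, 2138 and 2048 in small antral oocytes, against 2594, 3011, 3036 and 2694 in secondary oocytes, and fell by 0.49 ± 0.09. Both falls left no overlap. The rises of Kif22 (0.39 ± 0.12, adjusted p = 0.033) and Kif23 (0.30 ± 0.09, adjusted p = 0.025) were lost under 13 and 10 of 20 alternatives, with adjusted p of up to 0.26 and 0.45. Among these were both other scalings and, for both genes, leaving out secondary replicate 1 or small antral replicate 2 or 3.

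From small antral to large antral, 0 of 33 Kif genes passed limma's test, against 3.1% of all genes up and 4.88% down (7.98% in all). At an unadjusted p under 0.05 there were 8 Kif genes, where 21.5% of all genes reached it. The lowest adjusted p belonged to Kif26a, which lacks motor activity and damps GDNF signalling in enteric neurons. It had 517, 288, 552 and 475 in large antral oocytes, against 113, 134, 142 and 104 in small antral oocytes. All large antral samples lay above all small antral ones, but the log2 change of 1.63 ± 0.44 had an adjusted p of 0.066, on the noisier 430B array. With a larger offset added before log2 it was 1.20 (adjusted p = 0.014), and with 20 arrays or only the compared stages in the fit the adjusted p was 0.034. Kif18a stood higher in all 4 large antral samples (654 to 823) than in small antral ones (433 to 633), with a log2 change of 0.44 ± 0.17 and an adjusted p of 0.089.

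**Figure D3:**
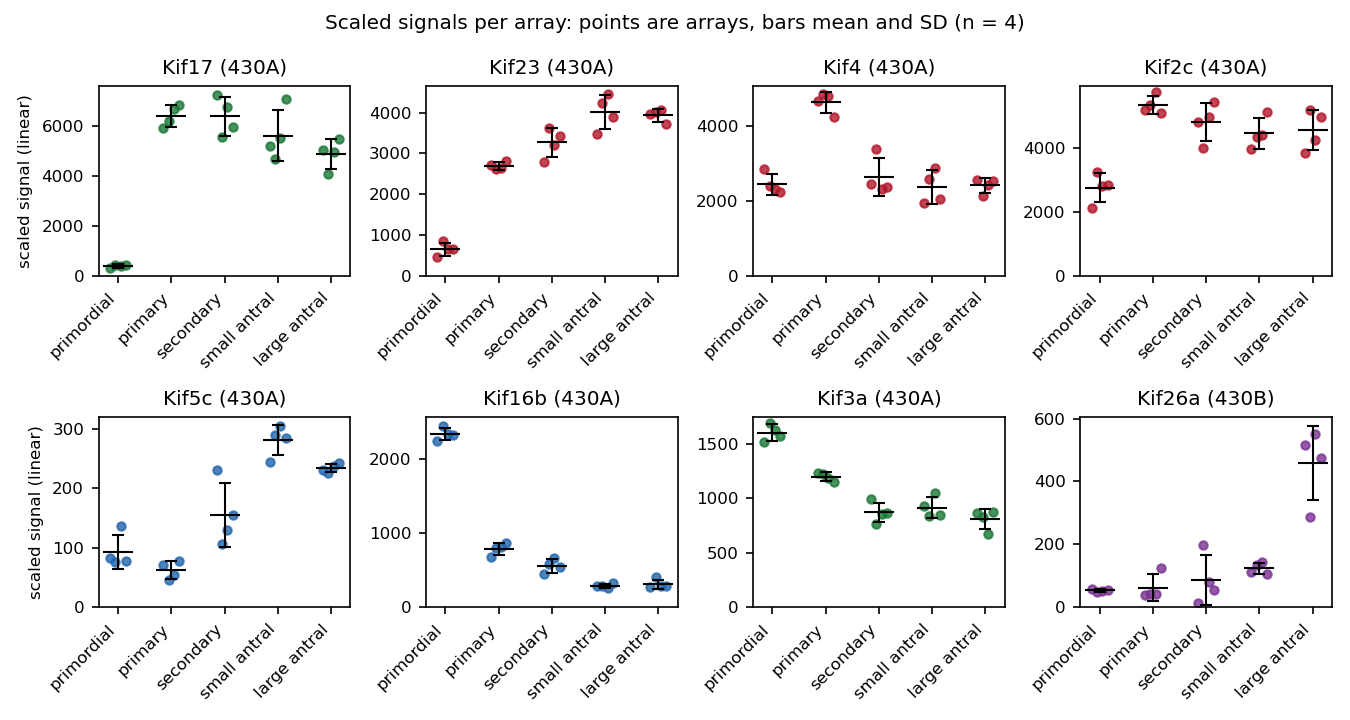
Scaled signals of 8 Kif genes in each array, by stage, on a linear axis starting at 0, with the mean and SD of 4 arrays as bars. Kif17 and Kif23 step up at the primary stage, Kif4 is high in primary oocytes alone among the means, Kif5c steps up at the secondary and small antral stages, Kif16b steps down, and Kif26a is high in large antral oocytes.

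Over the whole of growth, from primary to large antral, 7 Kif genes rose and 6 fell, 21.2% and 18.2%, against 17.4% and 17.6% of all genes (35.0% in all). None of the 13 overlapped between the groups, as was so for 91.2% of called genes on the whole arrays, and 4 of the 33 changed at least 2-fold, 12.1% against 11.8% of all genes. In the fit with all 20 arrays and unmixed primordial values 9 were called, 5 up and 4 down, without Kif17, Kif20b, Kif22 and Kif2a. Of 12 spindle kinesins, 5 rose and 2 fell. Kif18a had 716, 788, 823 and 654 in large antral oocytes, against 234, 453.5, 347 and 371 in primary oocytes, a log2 change of 1.05 ± 0.17 (adjusted p = 3.2e-05). Kif23 had 3959, 4012, 4053 and 3709 in large antral oocytes, against 2716.5, 2606, 2631 and 2808 in primary oocytes, all higher, and rose by 0.54 ± 0.09. Kif22 rose by 0.49 ± 0.12, and here its other probe sets rose too, by 0.79 ± 0.12 and 0.69 ± 0.11. Kif18b, a motor that limits the length of astral microtubules, rose by 0.42 ± 0.12 (adjusted p = 0.023). Kif20b rose by 0.39 ± 0.13 (adjusted p = 0.044), a call lost under 10 of 19 alternatives (adjusted p = 0.057 to 0.16), both other scalings among them. Kif4 and Kif2a went the other way, by -0.94 ± 0.13 and -0.46 ± 0.14.

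Kif5c had 231, 225, 238 and 242 on 430A in large antral oocytes, against 71.4, 46.3, 53.2 and 77.4 in primary oocytes, and rose by 1.51 ± 0.18 (adjusted p = 1e-06). Its 430B probe set had 6623, 5586.5, 7582 and 6454 in large antral oocytes, against 1260.2, 814, 944 and 1005 in primary oocytes, and rose by 2.68 ± 0.12, which is a wider change than on 430A. The other kinesin-1 heavy chains did not pass the test in this comparison, with -0.22 ± 0.15 for Kif5b and -0.17 ± 0.22 for Kif5a. Kif16b had 268, 402, 288 and 281 in large antral oocytes, against 675, 796, 815 and 863 in primary oocytes, and fell by 1.27 ± 0.14. Kif13b fell by 0.68 ± 0.09. Kif26a rose by 2.43 ± 0.44 (adjusted p = 0.00031), with signals of 288 to 552 in large antral oocytes, against 39.1 to 126 in primary oocytes.

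**Figure D4:**
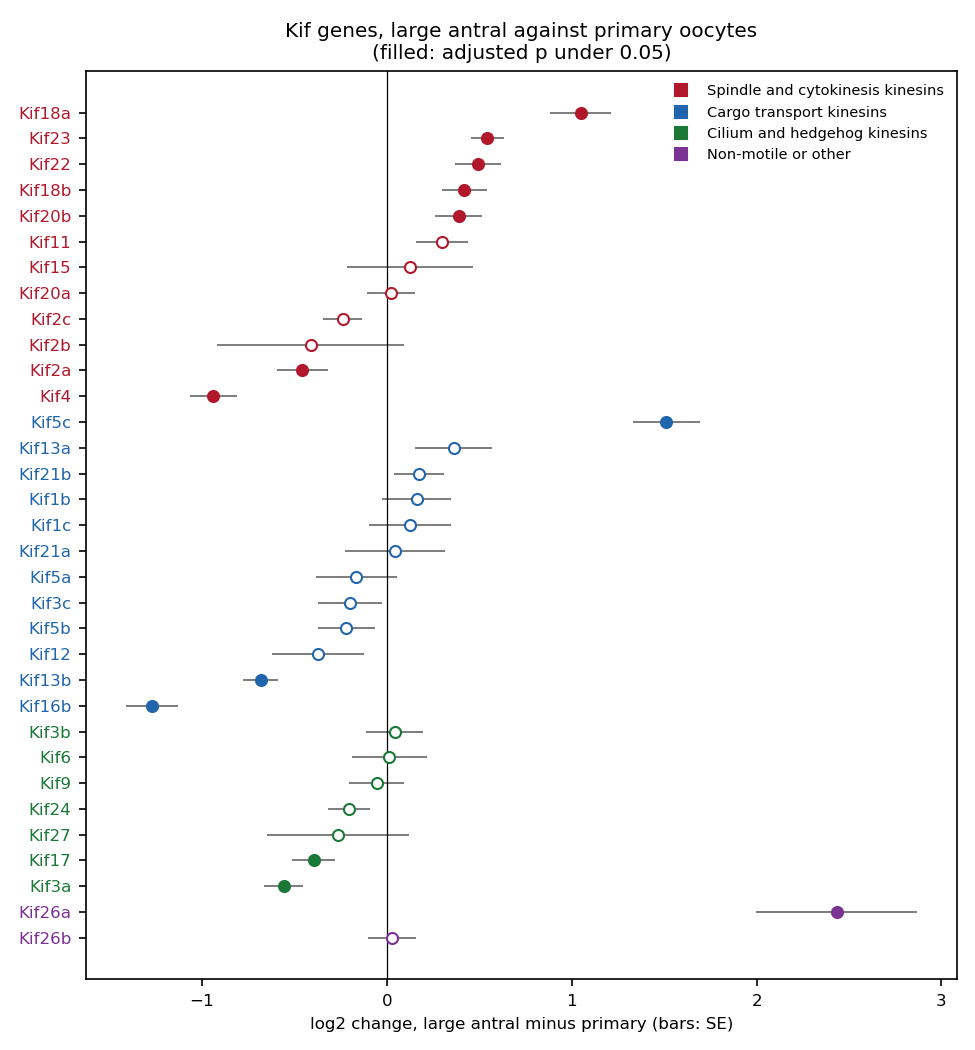
Log2 change of each tested Kif gene in large antral minus primary oocytes, with its SE, ordered by group and size, filled where the adjusted p is under 0.05. The 7 filled rises include Kif18a, Kif5c and Kif26a, and the 6 filled falls include Kif4, Kif16b and Kif3a.

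The summed signal of granulosa cell markers ran higher at later stages, with overlap between secondary and small antral samples, and it is given here beside the growth results. Summed over 10 genes on 430A they reached 812 to 1173 in primordial samples, 1278 to 1507 in primary, 1655 to 1999 in secondary, 1966 to 2228 in small antral and 2513 to 2645 in large antral samples. Without Nr5a2, which rose by 1.77 ± 0.20 in primary oocytes (1.24 unmixed) and is the 1 of 10 markers called there, the sums were 741 to 912 in primordial, 625 to 812 in primary, 659.8 to 1062 in secondary, 1103 to 1341 in small antral and 1952 to 1971 in large antral samples. From primary to large antral 3 of 10 tested markers rose and 0 fell, where 17.4% of all genes rose and 17.6% fell. Of the 10 on 430A, 6 and 4 averaged at least 100 in large antral and primary oocytes. The gap junction gene Gja1 rose by 3.24 ± 0.31, the steroid enzyme gene Hsd17b1 by 1.72 ± 0.30 and the inhibin gene Inha by 1.25 ± 0.14. Gja1 and Hsd17b1 also rose between small antral and large antral oocytes, by 1.47 ± 0.31 and 1.02 ± 0.30, while Nr5a2 fell by 0.55 ± 0.11. Oocyte markers also moved over growth, with 2 of 10 up and 7 down from primary to large antral, against 17.4% and 17.6% of all genes. The part of granulosa RNA, or of these oocyte changes, in the rises of Kif26a, Kif18a or Kif5c was not tested.

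The kinesin-2 trimer of Kif3a, Kif3b and the adaptor Kifap3 was lower at later stages in 2 of its 3 genes. Kif3a had 863.5, 829, 669.6 and 873 in large antral oocytes, against 1236, 1226, 1185 and 1154 in primary oocytes, with no overlap, and fell by 0.56 ± 0.11 (adjusted p = 0.00025). Its 430B probe sets fell by 2.04 ± 0.18 and 1.34 ± 0.17, and the first had 397, 712, 783 and 532 in large antral oocytes, against 2711.5, 2329.5, 2536 and 2486 in primary oocytes. The sizes thus depend on the probe set, while all 4 tested Kif3a probe sets fell. Kifap3, which is no member by name, had 137, 135, 179.6 and 165 in large antral oocytes, against 1011, 925, 917.5 and 1019 in primary oocytes, and fell by 2.43 ± 0.13 (adjusted p = 1.3e-11). It had already fallen by 1.44 ± 0.12 (-1.40 unmixed) in primary oocytes, against its primordial mean of 2677 ± 145 (SD, n = 4). Kif3b, the partner of Kif3a, averaged 230.3 ± 43.1 in primordial, 272 ± 59.7 in primary, 292 ± 44.7 in secondary, 279.9 ± 43.2 in small antral and 278 ± 29.5 in large antral oocytes (SD, n = 4 each). None of its 4 probe sets passed the test in any comparison of deposited values, and its log2 change from primary to large antral was 0.04 ± 0.15.

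Of the 33 genes, 13 were called in at least 1 of the 4 comparisons among later stages, and 10 in none of the 5 comparisons. That is 39.4% and 30.3%, against 41.9% and 37.0% of all genes. Those 10 were Kif12, Kif15, Kif1c, Kif21b, Kif27, Kif2b, Kif3b, Kif3c, Kif5a and Kif6, by the probe set that represents each. By that probe set only Kif1c and Kif3c among them were called with unmixed primordial values, both as falls, of 0.75 ± 0.27 and 0.67 ± 0.23. Other probe sets of Kif5a, Kif6 and Kif1c were called. In primary relative to primordial oocytes a Kif5a one fell by 1.33 ± 0.38 (-1.40 unmixed) and a Kif6 one by 1.31 ± 0.36. The Kif6 fall was not called at 2-fold or more with unmixed values. Its unmixed primordial values were 349, 190, 108.5 and 155, against 81.7, 77.2, 77.4 and 127 in primary oocytes, so the groups overlapped. For Kif1c, 1 of 3 tested probe sets fell there and 1 rose from primary to large antral. A missing call does not show a constant level. Kif2b, for example, had an SE of 0.51 in comparisons among later stages.

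Probe sets of the same gene did not always agree. In 22 genes with several tested probe sets, called directions were opposite in 6 of 110 pairs of gene and comparison, in Kif11, Kif1b, Kif20b and Kif2a. For Kif11 the represented probe set averaged 447 ± 24.1, 708 ± 76.8, 739 ± 187, 679.8 ± 63.4 and 878 ± 106.5 from primordial to large antral oocytes (SD, n = 4 each). A second one, of a class that reads alternative transcripts of a gene, averaged 312 ± 79.0, 770.2 ± 71.2, 668 ± 79.7, 303 ± 43.9 and 234 ± 35.2 over the same stages. In primary relative to primordial oocytes these 2 rose, the second by 1.25 ± 0.16, while the remaining Kif11 probe set was called as a fall. That probe set averaged 392 ± 80.3 in primordial and 202 ± 105.0 in primary oocytes, and with unmixed values it fell by 1.18 ± 0.31 (adjusted p = 0.0032). From primary to large antral the second fell by 1.60 ± 0.13 (adjusted p = 6.7e-09), while the first gave 0.30 ± 0.14 (adjusted p = 0.1). The difference between these probe sets was not itself tested.

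Kif1b was the widest case, with 7 tested probe sets. In primary relative to primordial oocytes the represented one rose by 0.62 ± 0.17 and 1 other rose by 0.52 ± 0.18, a call lost with unmixed values (0.32, adjusted p = 0.21), while 3 fell, by 0.70 ± 0.12, 0.95 ± 0.30 and 1.53 ± 0.20. The last of these had 445, 404, 448 and 400.2 in primary oocytes, against 701, 1335, 1482 and 1958 in primordial oocytes. It went on to fall by 1.18 ± 0.15 in large antral relative to primary oocytes. In Kif2a, 1 probe set rose by 1.19 ± 0.31 in primary oocytes, where the represented set fell. Another Kif2a probe set had 146, 139, 199.8 and 150.4 in large antral oocytes, against 351, 281.5, 321 and 343 in small antral oocytes, and fell by 0.91 ± 0.16 (adjusted p = 0.0012).

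**Figure D5:**
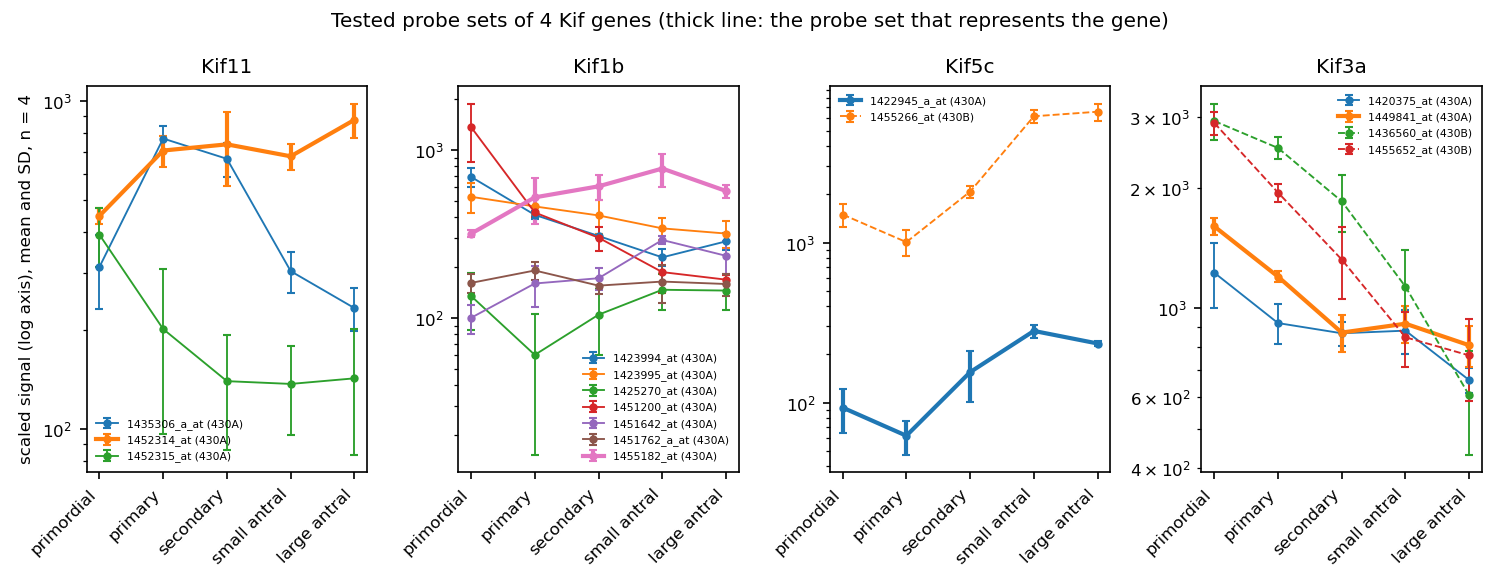
Mean scaled signal and SD (n = 4) by stage of every tested probe set of Kif11, Kif1b, Kif5c and Kif3a, on a log axis, with the represented probe set as a thick line and 430B probe sets dashed. Lines of Kif11 and Kif1b cross and diverge, while both lines of Kif5c are higher, and all 4 of Kif3a lower, at the large antral than at the primary stage.

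Companion genes of the microtubule system are given for their counts, against 25.3% of all genes up and 23.5% down in primary oocytes. Among 8 other kinesins and kinesin partners tested, 2 rose and 2 fell in primary relative to primordial oocytes. In large antral relative to primary oocytes 3 rose and 4 fell, against 17.4% and 17.6% of all genes. Kifc1, a minus-end motor of spindle poles, had 1126.5, 981, 1545 and 1179.7 in primary oocytes, against 698, 538, 527 and 449 in primordial oocytes (1.08 ± 0.15; 1.54 unmixed). It was then lower in secondary than in primary oocytes, at 695 ± 57.3 and 1208 ± 239.8 (SD, n = 4 each), with a log2 change of -0.76 ± 0.14, as Kif4 was. Cenpe, the kinetochore kinesin, fell by 1.39 ± 0.17 in primary oocytes (-1.74 unmixed) and rose by 0.55 ± 0.16 from primary to large antral. Of 24 spindle microtubule factors, 11 rose and 6 fell in primary oocytes (12 and 4 unmixed). Tacc3 rose by 1.65 ± 0.10 (1.42 unmixed) and the Kif11 partner Tpx2 by 1.20 ± 0.10 (1.23 unmixed). The augmin subunit gene Haus1 fell by 1.08 ± 0.13, a call lost with unmixed values (-0.46, adjusted p = 0.12), and the cytokinesis factor Ect2 fell by 0.95 ± 0.15 (-1.33 unmixed).

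Tubulins, the track on which kinesins run, rose in 6 of 10 genes and fell in 2 in primary oocytes (5 and 2 unmixed). In that comparison 25.3% of all genes rose and 23.5% fell (23.3% and 18.4% unmixed). The tubulin rises were led by Tubb6 with 3.33 ± 0.13 (3.04 unmixed) and Tubb3 with 2.96 ± 0.14 (2.79 unmixed). Tuba1a fell by 1.74 ± 0.18 (-1.75 unmixed), on a probe set of the class that can bind related transcripts. Cytoplasmic dynein and dynactin, which move cargo the opposite way to most kinesins, showed 8 rises and 8 falls among 21 genes there (7 and 7 of 20 unmixed). The largest rise was that of the dynactin gene Actr1a, by 1.59 ± 0.13 (1.90 unmixed), and Dctn6 fell the most, by 1.43 ± 0.16 (-1.77 unmixed). The heavy chain Dync1h1 had 1062, 1093, 1064 and 1010.4 in primary oocytes, against 2552, 1968, 2073 and 1878 in primordial oocytes, fell by 0.97 ± 0.14 (-0.65 unmixed), and by a further 0.80 ± 0.14 from primary to secondary. From primary to large antral 3 of the 21 rose and 7 fell, beside 7 and 6 of the 33 Kif genes and 17.4% and 17.6% of all genes. These lists are described by their counts, and nothing particular to any of them was tested.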

How the data were processed

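Transcripts of mouse oocytes were measured on Affymetrix 430A and 430B arrays, with 4 biological replicates per stage and type, 20 arrays per type and 40 samples. Per the submitters' processing notes the deposited values come from MAS5, and their version and scaling target are not given in the sources used here. They are linear intensity signals, and their trimmed means as deposited were 151.1 to 154.5 on 430A and 144.4 to 147.6 on 430B. The number of arrays limits precision. Samples were grouped by their titles. Here the 2% trimmed mean of an array was brought to 500, and tests ran on log2(signal + 32), which understates changes of dim probe sets. Only probe sets with a signal of 100 in at least 4 of the 20 arrays were tested.

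Tests used limma 3.58.1 in R 4.3.3 (two-sided, moderated by eBayes with trend), each array type apart. The primordial to primary comparison was fitted on 20 arrays (15 residual degrees of freedom). The other 4 were fitted on the 16 arrays of later stages (12 residual degrees of freedom). The mixed primordial columns thus did not enter the fit of those 4, but they did enter the signal filter and the means that chose probe sets. P-values were adjusted by Benjamini-Hochberg over all tested probe sets of the type and called under 0.05. A gene was represented by 1 tested probe set, 430A before 430B and then the highest mean, and counts over all genes used the same rule. Symbols came from the platform annotation, which gave 1 symbol to 20380, several to 691 and none to 1555 of the 22626 on 430A, and 1 to 14565, several to 241 and none to 7605 of the 22411 on 430B. Genes with values given are the 4 largest called rises and falls of each comparison and a list of well-known spindle and transport motors, and other probe sets where they disagree with the represented one. Kif24, Kif18b, Kif1c, Kif3c, Kif5a, Kif6 and Kif2b lie outside that rule and were chosen after their values were seen. Companion genes named are among the 2 largest called rises or falls of their list in a comparison, or are Cenpe, Kifc1, Tpx2 or Dync1h1. The members, lists and groups were chosen with earlier results of these data known, and the use of unmixed primordial values follows from those results.

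Promoters were read from a RefSeq table (GRCm38.p6) for 31 of 37 genes, matched by Entrez gene identifier. Motifs were searched on both strands in the 250 bases before the start. The full cAMP response element is its own reverse complement. The procedure was tested on simulated arrays. Alternatives were other scalings, offsets, filters, variance priors, array sets, probe sets and a replicate block, and leaving out each replicate. Replicate numbers did not pair the samples: deviations of arrays with the same number correlated with a median of 0.016 on 430A and 0 on 430B.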

Additional observations from a re-analysis of the deposited data

Results flagged for a closer look

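Among 115 groups of 4 arrays of the named Kif genes, 6 held a sample that lay apart from its 3 replicates by Dixon's criterion at the 95% level, and chance alone gives about 1 such group in 20. In secondary replicate 2, Kif11 had 1017.5, with 616.8 to 680.1 in the other 3 arrays, and Kif4 had 3388.8, with 2328.5 to 2447.0 in the others. Kif4 fell from primary to secondary with that array left out too. Kif21a was low in secondary replicate 3, at 21.5, with 88.4 to 99.6 in the others. Kif16b was high in large antral replicate 2, at 401.8, with 268.2 to 287.9 in the others. Kif26a was high in primary replicate 4, at 125.7, with 39.1 to 42.3 in the others. Kif5c was high in primordial replicate 3, at 135.6 as deposited, with 76.1 to 83.3 in the others.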

How the results depend on the processing

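The number of called Kif genes kept within 1.5 times its value under every alternative run for the primordial to primary and primary to large antral comparisons, and moved in the others. From primary to secondary, 7 became 4 with no filter on low signals, 4 without the variance trend and 4 with all 20 arrays and unmixed primordial values, an alternative chosen after seeing the data. From secondary to small antral, 5 became 3 with quantile normalization, equal medians, no variance trend, all 20 arrays with deposited or with unmixed primordial values, and only the compared stages. From small antral to large antral, 0 became 1 with a larger offset before log2, all 20 deposited arrays or only the compared stages (Kif26a each time), with the replicate block (Kif18a), and with the probe set of highest mean over both array types (Kif3a, down). Leaving out 1 replicate gave 17 to 21 calls from primordial to primary, 4 to 5 from primary to secondary, 3 to 5 from secondary to small antral, 0 to 1 from small antral to large antral and 11 to 13 from primary to large antral. The 4 calls came without primary replicate 1 or 4 or secondary replicate 4, the 3 calls without secondary replicate 1 or small antral replicate 2 or 3, and the 1 call, Kif20a, without large antral replicate 4. Without small antral replicates 2 to 4 on 430B the counts were 5 and 0, as with them. Since the replicate numbers did not pair samples, the replicate block is given here alone: with it 19, 7, 5, 1 and 13 genes were called in the 5 comparisons, against 18, 7, 5, 0 and 13, and on 430A 1 of 24 same-number correlations was over 0.1. Directions changed where another probe set came to stand for a gene: Kif13a from primordial to primary was 0.42 with no filter, and with the highest mean over both array types Kif21a was 0.01 in that comparison and Kif3a -0.71 from secondary to small antral. Among the log2 changes of named genes under the alternatives, 2108 kept direction and side of the threshold, 80 lost a call, 17 gained one and 3 changed direction. A planned reading of motor signatures from proteins was not run. Low signals on 430B, such as those of Kif26a and Kif2b, limit what these arrays can resolve.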
